A study of Mus musculus with 12 samples.

Results

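The genes described here are 46 mouse genes of the cellular answers to misfolded protein. They were listed by name and known function, with earlier results of these data known. Of the 46, 19 act in the cytosolic heat shock response, 3 are mitochondrial chaperones, 13 are chaperones and folding enzymes of the endoplasmic reticulum (ER), 6 are sensors, factors and degradation genes of the unfolded protein response, and 5 belong to the arm of that response that runs through eIF2alpha and ATF4. A named probe set was found for 41 of them. The other 5, Hspb1, Hsf1, Hspd1, Hsp90aa1 and Hsp90ab1, were not analysed here. Of the 41, 6 stayed below the filter on low values (Hspa1a, Cryab, Hsf2, Ern1, Eif2ak3 and Sesn2) and 35 were tested, among 6683 tested probe sets of 16475 in all. Those 35 comprised 12 cytosolic, 2 mitochondrial and 13 ER chaperone genes, 4 genes of the unfolded protein response and 4 of the ATF4 arm. Of the 35, 33 passed the filter value on all 12 arrays; Hyou1 and Sdf2l1 fell below it on some.

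The study profiled total RNA of mouse liver on 12 Affymetrix arrays, 1 array per animal, with 4 groups of 3 animals. The controls were c-MetloxP/loxP mice, whose Met alleles are flanked by loxP, and knockout mice carried the same alleles with a Cre transgene that deletes Met, which encodes the receptor of hepatocyte growth factor (HGF), in hepatocytes. The Cre was driven by either the albumin and AFP promoter and enhancer (Alfp-Cre), active in the embryo, or the albumin promoter (Alb-Cre), active after birth, and the labels do not say which cross an array represents. Livers of both genotypes were taken either unstimulated or 2 h after 2 µg of recombinant mouse HGF was given into the peritoneum. Whether the unstimulated mice received NaCl is not settled by the labels, so HGF cannot be told apart from injection and handling. Age, sex and strain are not given in the sources used here. Which other liver cells keep Met in each cross was not tested. The control arrays are numbered 1 to 6 and the knockout arrays 7 to 12, so genotype cannot be told apart from array order.

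Cells meet misfolded protein with a separate programme in each compartment. In the cytosol, heat shock factor 1 binds heat shock elements and raises HSP70 and HSP40 chaperones and their cochaperones. In the ER, the sensors IRE1 (Ern1), PERK (Eif2ak3) and ATF6 raise ER chaperones, such as the HSP70 protein BiP, and the degradation machinery, while PERK also slows translation by phosphorylating eIF2alpha and so favours translation of ATF4. The hepatocyte secretes most plasma proteins and has a large ER, and ER chaperones are abundant in it without stress.

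The promoters of the cytosolic and the ER genes held different elements. RefSeq promoter windows of GRCm38.p6, from 250 bases before to 50 bases after each start, were held for 37 of the 46 members and for 27025 genes in all. Both strands were searched. A heat shock element of 2 facing units (GAANNTTC or TTCNNGAA) stood in 17.0% of all genes' windows, in 9 of 14 cytosolic windows (Hspa1a, Hspa1b, Hsph1, Hspb1, Hspb8, Dnaja1, Dnajb4, Bag3 and Chordc1), in both mitochondrial windows (Hspd1 and Hspe1) and in 0 of 11 ER chaperone windows. It was also found in Eif2ak3 and Asns. A longer form of 3 units (GAANNTTCNNGAA or TTCNNGAANNTTC), which contains the shorter one, stood in 0.662% of genes and in Hsph1, Chordc1, Hspd1 and Hspe1. The ER stress element (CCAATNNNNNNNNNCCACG) stood in 0.137% of genes, in 6 of 11 ER chaperone windows (Hspa5, Hsp90b1, Dnajc3, Calr, Canx and Pdia6) and in 0 of 14 cytosolic ones. Its second form (ATTGGNCCACG) stood in 0.0444% of genes, Dnajb11 and Herpud1 among them. The element read by ATF4 dimers (TGATGNAA) stood in 4.51% of genes, Asns and Herpud1 among them. A match is a run of letters and shows no binding.

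The stretches below carry these elements in 8 members whose values are described further on. Each is read 5′ to 3′ on the strand of its gene, with up to 20 bases on either side and the element in capitals; in Calr the element lies on the opposite strand.
Hspa1b, chr17:34959315-34959362 (minus strand): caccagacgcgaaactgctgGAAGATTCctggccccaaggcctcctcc
Hsph1, chr5:149636342-149636389 (minus strand): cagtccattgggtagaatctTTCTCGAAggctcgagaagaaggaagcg
Dnajb4, chr3:152193846-152193879 (minus strand): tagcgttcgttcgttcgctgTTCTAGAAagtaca
Hspa5, chr2:34772005-34772063 (plus strand): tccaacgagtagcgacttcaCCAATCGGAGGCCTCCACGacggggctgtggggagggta
Calr, chr8:84847055-84847113 (minus strand): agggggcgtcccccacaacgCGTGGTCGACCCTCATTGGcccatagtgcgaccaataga
Pdia6, chr12:17266471-17266529 (plus strand): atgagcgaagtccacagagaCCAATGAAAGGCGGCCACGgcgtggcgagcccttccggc
Herpud1, chr8:94386357-94386407 (plus strand): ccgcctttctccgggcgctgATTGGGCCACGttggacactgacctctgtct
Asns, chr6:7693210-7693252 (minus strand): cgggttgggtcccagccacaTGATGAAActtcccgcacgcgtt
The first 3 hold a heat shock element, the next 3 the ER stress element, Herpud1 its second form, and Asns the ATF4 element. In Asns a heat shock element overlaps those capitals, at -19 to -12 from the start against -23 to -16.

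Levels are given as log2(intensity + 1), in the order of replicates 1, 2 and 3, and differences are on that same scale. A level cannot be compared between genes, since each probe set has its own response. All arrays carried hepatocyte RNA: 8 of 8 hepatocyte markers passed the filter value on every array, with a summed intensity of 81330 to 86030. No lymphocyte or cholangiocyte marker was tested, since all of those with a probe set stayed below the filter. The Met probe set did not follow the genotype, with levels of 6.59 to 7.02 on the 6 control and 6.29 to 7.40 on the 6 knockout arrays; whether it reads the deleted stretch is not known here. Both arrays labelled knockout replicate 2 ran against the order of the control groups in the gene Tnfaip3. Whether their labels were exchanged, or knockout livers answer HGF otherwise than control livers in this gene, was not tested. Tnfaip3, an NF-kappaB feedback gene, was at 2.14 to 2.38 on the control arrays without HGF and 9.67 to 10.82 with it. On the knockout arrays it was at 3.41, 10.22 and 2.45 in replicates 1 to 3 without HGF and at 3.74, 2.44 and 9.59 with HGF. Replicate 1 with HGF was thus low for Tnfaip3 as well, but not for the chemokine gene Cxcl1, which read 7.23, 11.70 and 6.42 without HGF and 10.94, 7.26 and 11.58 with HGF on the knockout arrays. The values below without 2 arrays leave out both labelled knockout replicate 2. In whole liver, fewer cells of a type and less RNA per cell cannot be told apart.

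**Figure D1:**
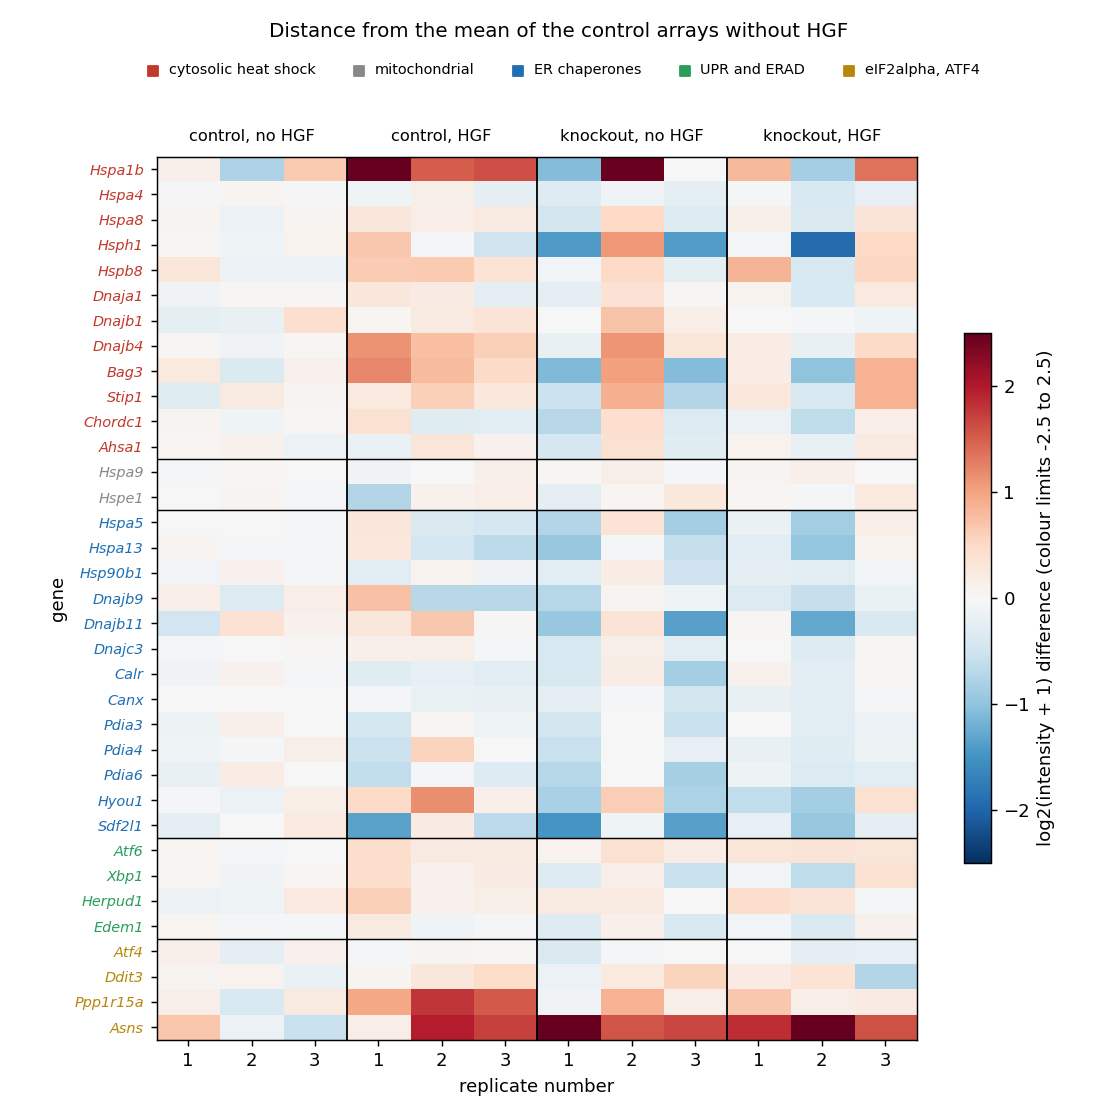
Heat map of the 35 tested members (rows, coloured by group of genes) on the 12 arrays (columns); colour is the log2(intensity + 1) difference from the average unstimulated control. Cytosolic genes such as Hspa1b, Dnajb4 and Bag3 are red on the control arrays with HGF, and on the knockout arrays replicate 2 without HGF is the reddest and replicate 2 with HGF among the bluest.

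In control livers, the cytosolic chaperone genes Hspa1b and Dnajb4 and the phosphatase subunit gene Ppp1r15a were higher on every array with HGF than on any without it, while no ER chaperone gene was. None of the 35 tested members passed an adjusted p of 0.05 in the fit of all 12 arrays (limma, Benjamini-Hochberg over all 6683 probe sets), in which 27 probe sets or 0.404% passed. At an unadjusted p under 0.05 stood 5 of the 35 (14.3%), all higher with HGF, beside 1308 of 6683 probe sets (19.6%). Their share was thus near that of all probe sets. The 5 were Ppp1r15a, Atf6, Dnajb4, Asns and Hspa1b. The 3 arrays with HGF lay wholly above the 3 without in 9 of the 35 members, beside 14.1% of all probe sets, and wholly below in 2, beside 23.7%. Of the 9, 6 were cytosolic (Hspa1b, Hspa8, Hspb8, Dnajb4, Bag3 and Stip1), 2 belonged to the unfolded protein response (Atf6 and Xbp1) and 1 to the ATF4 arm (Ppp1r15a). The 2 below were the ER lectin chaperones Calr and Canx.

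Of the cytosolic genes, Hspa1b (Entrez 15511) differed most. It encodes an inducible HSP70 that is kept low without stress. Its levels in control livers were 6.30, 5.40 and 6.84 without HGF and 8.80, 7.70 and 7.80 with HGF, and the groups did not overlap. The difference was 1.92 (SE 0.85, 95% interval 0.03 to 3.81), or 3.78-fold, with an adjusted p of 0.249 by limma. The near-identical Hspa1a lies beside it in the genome, and whether the probes of either read both is not known here; Hspa1a itself was near background on all 12 arrays, at 2.00 to 2.76.

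Dnajb4 (Entrez 67035) encodes an HSP40 protein that loads clients onto HSP70. Its levels were 7.62, 7.50 and 7.64 without HGF and 8.70, 8.33 and 8.18 with HGF. The difference was 0.82 (SE 0.29, 95% interval 0.17 to 1.46), or 1.76-fold, with an adjusted p of 0.164 by limma. All 3 values with HGF thus stood clear of a narrow control range.

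Bag3 (Entrez 29810), a cochaperone that releases clients from HSP70 and steers them to autophagy, read 6.97, 6.36 and 6.83 without HGF and 7.91, 7.50 and 7.20 with it. The difference was 0.82 (SE 0.59, adjusted p 0.466 by limma). Its small heat shock protein partner Hspb8 read 9.14, 8.71 and 8.70 without HGF and 9.48, 9.50 and 9.18 with it, a difference of 0.54 (SE 0.30, adjusted p 0.35). For both genes the groups did not overlap. Stip1, which hands clients from HSP70 to HSP90, differed by 0.36, and Hspa8, the constitutive HSP70, by 0.22. Hsph1, the nucleotide exchange factor of HSP70, overlapped between the groups, at 7.19, 7.04 and 7.24 without HGF and 7.82, 7.10 and 6.66 with it. The other 5 cytosolic genes overlapped too, with differences from -0.07 in Chordc1, an HSP90 cochaperone, to 0.21 in the HSP40 gene Dnajb1; Hspa4 was at -0.06, Dnaja1, another HSP40 gene, at 0.09, and Ahsa1, which activates the ATPase of HSP90, at 0.08. Cryab, a small heat shock protein gene, and Hsf2, a heat shock factor gene, stayed at 2.75 to 3.46 and 2.00 to 2.27 over all 12 arrays. Over the 12 cytosolic genes, 10 differences were positive and the median was 0.21, beside a median of -0.09 and 35.6% positive differences over all tested probe sets. The 2 mitochondrial chaperones, Hspa9 (the mitochondrial HSP70) and Hspe1 (HSP10), differed by 0.02 (SE 0.09) and -0.15 (SE 0.22).

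The ER chaperones lay near the bulk of the probe sets. Of the 13 differences, 30.8% were positive, beside 35.6% of all tested probe sets, and the median was -0.16, beside -0.09. None had an unadjusted p under 0.05 in the fit of all 12 arrays. Hspa5 (Entrez 14828) encodes BiP, the HSP70 of the ER. It read 11.96, 11.97 and 11.93 without HGF and 12.23, 11.60 and 11.54 with HGF, a difference of -0.16 (SE 0.34, 95% interval -0.93 to 0.60). The arrays with HGF thus lay on both sides of the narrow range without it. Calr, a lectin chaperone that holds calcium, read 9.82, 10.01 and 9.86 without HGF and 9.59, 9.70 and 9.61 with it. Its difference was -0.26 (SE 0.22, adjusted p 0.533 by limma), and that of its membrane-bound relative Canx was -0.13 (SE 0.12, adjusted p 0.552). Neither difference was large beside its SE in the fit of all 12 arrays, though the groups did not overlap in either gene. From the control arrays alone the SE of Calr was 0.10 (unadjusted p 0.0308, adjusted p 0.13 by limma). That of Canx was 0.09 (adjusted p 0.367), so neither passed. The disulfide isomerase Pdia6 differed by -0.33 (SE 0.22) and the HSP40 cofactor Sdf2l1 by -0.59 (SE 0.43), while Hyou1, a large HSP70 of the ER, differed by 0.59 (SE 0.43). In these 3 genes the groups overlapped. They overlapped as well in the other 7 ER chaperone genes, whose differences ran from -0.28 in Hspa13 to 0.33 in Dnajb11. Between these lay the HSP40 gene Dnajb9 (-0.22), the disulfide isomerase Pdia3 (-0.16), the HSP90 of the ER Hsp90b1 (-0.10), the disulfide isomerase Pdia4 (0.01) and the HSP40 gene Dnajc3 (0.08). Dnajb9 read 10.02, 9.50 and 10.02 without HGF and 10.58, 9.14 and 9.15 with it, so that replicate 1 stood above and the other 2 below the range without HGF.

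The regulators of the unfolded protein response were measured in part, since Ern1 (2.87 to 3.60 over all 12 arrays) and Eif2ak3 (2.19 to 2.70) stayed below the filter. Atf6 (Entrez 226641), the sensor that is cut in the Golgi to free a transcription factor, read 5.42, 5.33 and 5.37 without HGF and 5.81, 5.61 and 5.60 with it. The difference was 0.30 (SE 0.10, 95% interval 0.07 to 0.53, adjusted p 0.16 by limma), and the groups did not overlap. Xbp1, the factor whose RNA IRE1 splices, differed by 0.25 (SE 0.25), and Herpud1, a component of ER-associated degradation, by 0.28 (SE 0.18). Edem1, which sends misfolded glycoproteins to that degradation, differed by 0.03 (SE 0.17). A probe set does not tell spliced from unspliced Xbp1 RNA here. All 4 differences of this group were positive, with a median of 0.27.

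In the ATF4 arm, Ppp1r15a (Entrez 17872) had the smallest p of all members. It encodes GADD34, which brings protein phosphatase 1 to eIF2alpha and so restores translation. Its levels were 4.72, 4.19 and 4.78 without HGF and 5.54, 6.34 and 6.09 with HGF. The difference was 1.43 (SE 0.29, 95% interval 0.79 to 2.07), or 2.69-fold, with an adjusted p of 0.0673 by limma. The groups did not overlap. Asns, the asparagine synthetase gene that ATF4 drives, read 5.40, 4.56 and 4.15 without HGF and 4.86, 6.67 and 6.42 with it. Its difference was 1.28 (SE 0.53, adjusted p 0.22), and replicate 1 with HGF lay within the range without it. Atf4 itself differed by 0.02 (SE 0.14) and Ddit3, the CHOP gene, by 0.27 (SE 0.27). Sesn2, a stress-induced inhibitor of mTORC1, stayed below the filter at 2.07 to 2.93.

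**Figure D2:**
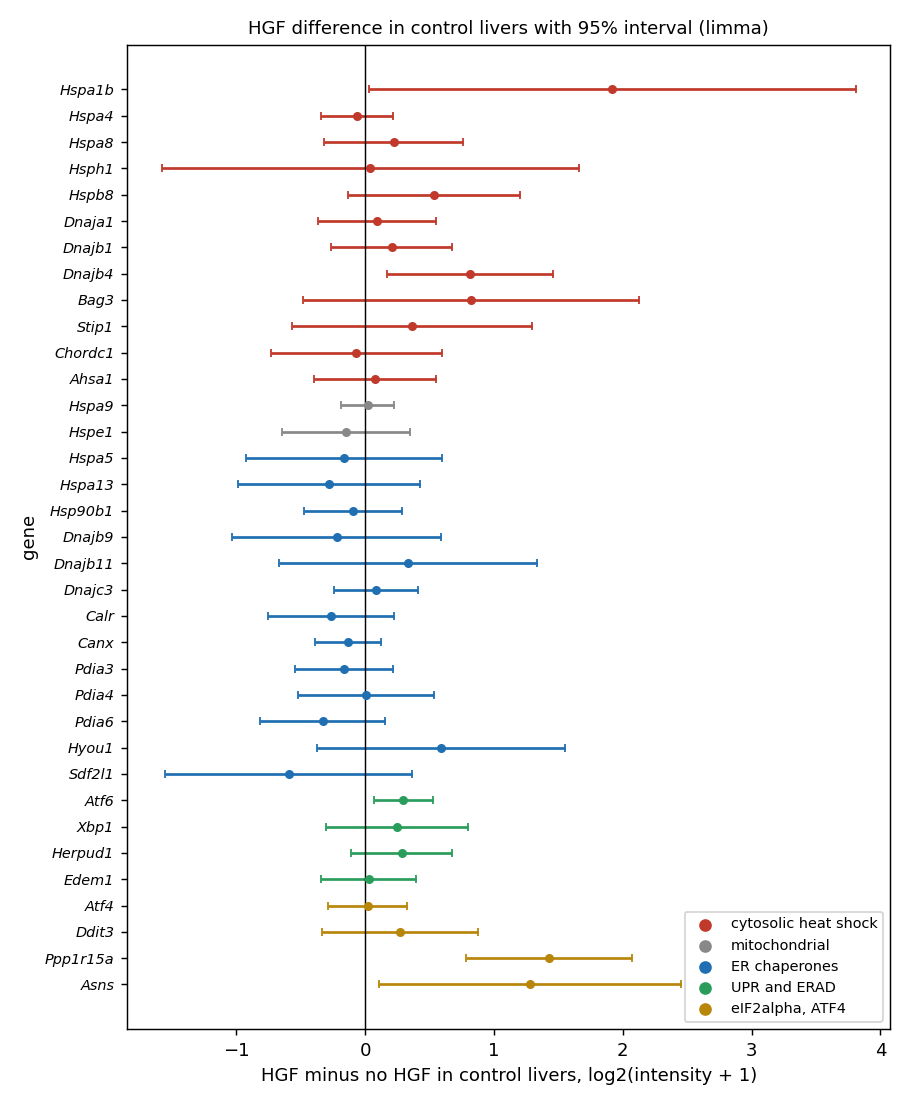
Difference between control livers with and without HGF for each of the 35 tested members (x axis, log2(intensity + 1); points are limma estimates and bars 95% intervals, coloured by group of genes). The intervals of Hspa1b, Dnajb4, Atf6, Ppp1r15a and Asns lie above 0, and those of all 13 ER chaperones include 0.

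The spread that the test used came from all 12 arrays. When the 6 control arrays were fitted alone, the differences stayed as above and 801 probe sets (12%) passed. Among them were 3 of the 35 tested members, a smaller share. Hspa1b (adjusted p 0.0357), Dnajb4 (0.0173) and Ppp1r15a (0.0143) rose with HGF by that limma fit; Bag3 (0.0667) and Hspb8 (0.081) did not pass. The same 3 passed by limma when both arrays labelled knockout replicate 2 were left out, at adjusted p values of 0.0332, 0.0245 and 0.0107. In that fit, too, far more probe sets passed than in the fit of all 12 arrays, as counted further below, so the members did not stand out. Leaving out 1 array at a time, Ppp1r15a passed without the array labelled knockout replicate 2 without HGF (0.0168) or without knockout replicate 3 with HGF (0.0492). A difference between control groups cannot change when knockout arrays are left out, only the spread it is set against. Both arrays labelled replicate 2 were the highest or lowest of their group in most members. Without both, the SE thus fell by itself, from 0.85 to 0.45 for Hspa1b and from 0.29 to 0.17 for Dnajb4. These passes add no evidence on HGF beyond the control arrays themselves. Neutrophil markers were also higher with HGF in control livers. Their summed intensity over 6 genes was 42.2 to 99.5 without HGF and 778 to 2841 with it; 2 of the 6 (S100a8 and S100a9) were tested, and Ngp, Camp, Csf3r and Cxcr2 stayed below the filter. Summed endothelial markers, 8 genes of which 7 were tested, went from 1568 to 1604 without HGF to 1164 to 1252 with it. The part of either cell type in the member differences was not tested.

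Other genes of the same pathways were read from lists. Of 38 other cytosolic chaperones and cochaperones, 25 were tested, with a median difference of -0.07 in control livers; 0 were called by limma and 1 had an unadjusted p under 0.05, Hspa14 (0.60 higher, SE 0.21). Of 41 other ER folding, degradation and stress genes, 35 were tested, 29 differences were negative, and the median was -0.14. None was called by limma, and 6 had an unadjusted p under 0.05, 5 of them lower. The disulfide isomerase gene Txndc5 read 8.73, 8.69 and 8.76 without HGF and 7.94, 8.53 and 8.24 with it, a difference of -0.49 (SE 0.14, adjusted p 0.117). Of 6 other mitochondrial chaperones and proteases, all were tested and none was called or had an unadjusted p under 0.05. Of 40 other genes of the ATF4 arm, 24 were tested and 1 was called. Atf3, a stress-induced transcription factor, read 2.99, 2.83 and 3.13 without HGF and 5.31, 6.36 and 5.64 with it, and rose by 2.79 (SE 0.47, adjusted p 0.0418 by limma).

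In knockout livers, the HGF differences of the members lay within the spread of the arrays. No member passed (limma, adjusted p 1 for all 35), nor did any probe set (0.0%), and no member had an unadjusted p under 0.05, beside 127 probe sets (1.9%). No member's arrays separated with HGF above (2.56% of all probe sets) or below (1.24%). Hspa1b read 5.10, 8.65 and 6.16 without HGF and 7.0, 5.34 and 7.55 with HGF. Ppp1r15a read 4.48, 5.44 and 4.71 without HGF and 5.23, 4.74 and 4.76 with HGF. In Hspa1b the array labelled replicate 2 was the highest of 3 without HGF and the lowest of 3 with HGF. Ppp1r15a had the same order, but replicates 2 and 3 with HGF were nearly equal, at 4.74 and 4.76. The median difference was 0.05 for the cytosolic and 0.10 for the ER chaperone genes.

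Without both arrays labelled knockout replicate 2, which left 2 arrays against 2, 278 probe sets (4.16%) passed, among them 5 members. These were Hsph1 (1.64, SE 0.33, adjusted p 0.0346), Bag3 (1.61, SE 0.30, 0.0252), Stip1 (1.21, SE 0.24, 0.0332), Calr (0.70, SE 0.16, 0.0491) and Hspa8 (0.63, SE 0.13, 0.0355), all higher with HGF in that limma fit. The median differences then were 0.58 over the cytosolic and 0.59 over the ER chaperone genes. Those arrays were left out because other genes on them stood against their labels, but the members split the arrays in much the same way. The array left out without HGF was the highest of its group in 31 of 35 members. The one left out with HGF was the lowest in 29 of 35. Leaving out such arrays raises the HGF differences of those members by itself. The adjusted p values of this fit therefore do not test HGF, and the values only describe the 4 arrays that remained.

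**Figure D3:**
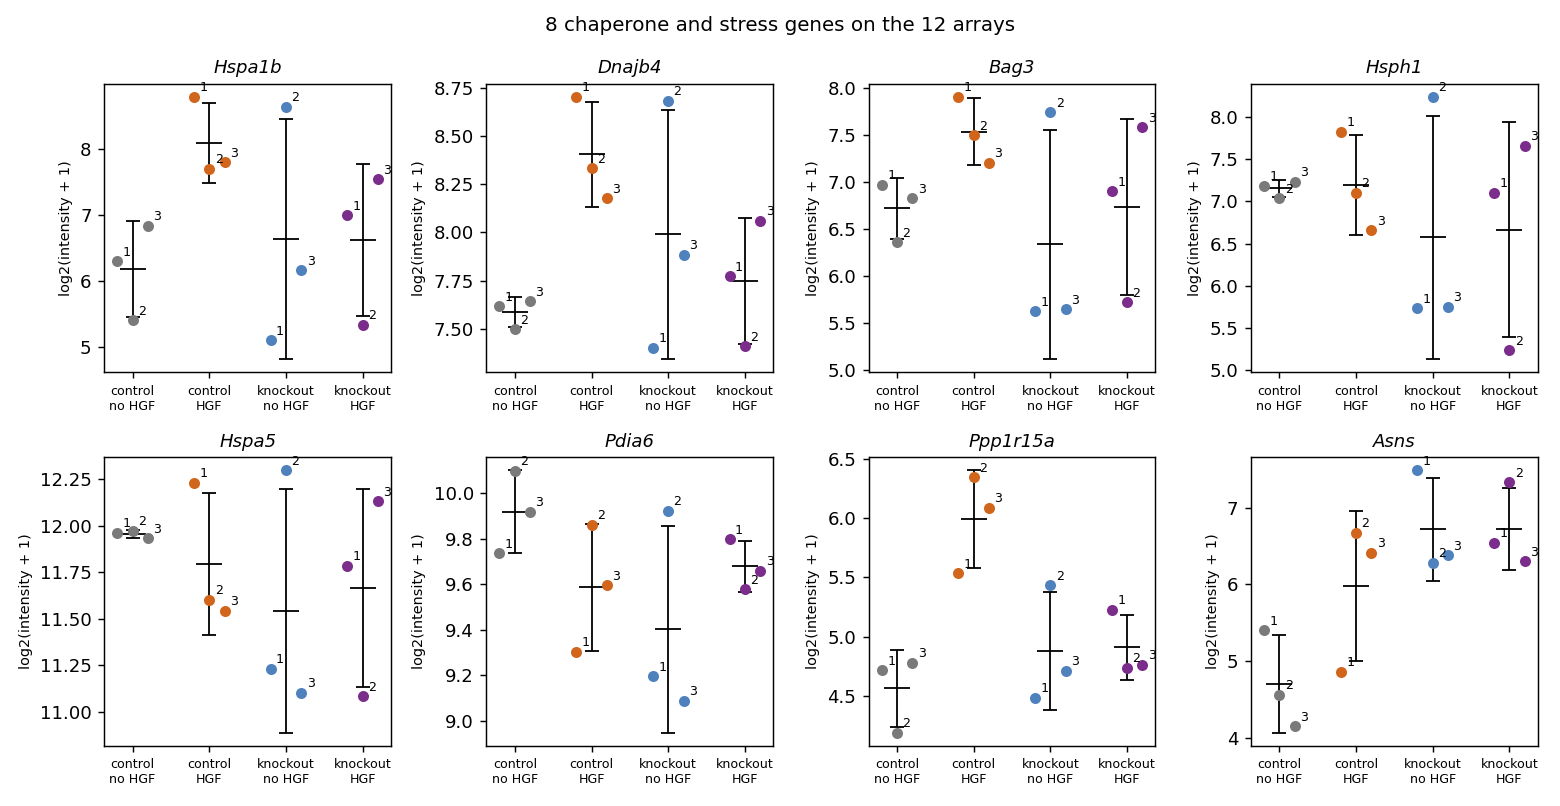
Levels of 8 members on the 12 arrays (y axis, log2(intensity + 1), a scale of its own for each gene); points are arrays, numbered by replicate, and bars are the mean and SD of 3 arrays. In the knockout groups replicate 2 is the highest of 3 without HGF for Hspa1b, Hsph1 and Bag3 and the lowest of 3 with HGF.

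Without HGF, ER chaperones were lower in knockout than in control livers in all 13 differences, with a median of -0.35, beside a median of -0.03 and 45.1% positive differences over all tested probe sets. No member passed (limma), beside 4 probe sets (0.0599%), and 3 members (8.57%) had an unadjusted p under 0.05, beside 10.8% of all tested probe sets. Pdia6 read 9.74, 10.10 and 9.92 in controls and 9.20, 9.92 and 9.09 in knockouts, a difference of -0.52 (SE 0.22, adjusted p 0.429). Sdf2l1 read 4.89, 5.15 and 5.38 in controls and 3.66, 5.02 and 3.78 in knockouts, a difference of -0.98 (SE 0.43, adjusted p 0.449). Both genes overlapped through the array labelled knockout replicate 2, and the other 2 knockout arrays lay below every control array. Asns was the other member under that p, and it was higher in the knockout. It read 7.49, 6.29 and 6.38 in knockouts, wholly above the controls, a difference of 2.01 (SE 0.53, 95% interval 0.84 to 3.18) or 4.03-fold, with an adjusted p of 0.192 by limma. Asns and Atf6 were the 2 members wholly above the controls (6.61% of all probe sets), and Canx and Hspa4 the 2 wholly below (12.1%). Hspa4 encodes an exchange factor of HSP70.

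Without both arrays labelled knockout replicate 2, 180 probe sets (2.69%) and 1 member passed. Hsph1 was then lower in the knockout by a difference of -1.41 (SE 0.30, adjusted p 0.0488 by limma), and the differences of Asns (2.23, adjusted p 0.0869), Pdia6 (-0.78, 0.0579) and Sdf2l1 (-1.42, 0.0869) did not pass. The ER chaperone median was then -0.62 and the cytosolic one -0.38, against -0.11 with all arrays. The array left out without HGF was the highest of its group in all 12 cytosolic and all 13 ER chaperone genes. Leaving it out lowers the knockout level of those genes by itself, so for them this fit does not test the knockout. Summed stellate cell and fibroblast markers, 7 genes of which 5 were tested, were 1552 to 1838 in controls and 2120 to 2571 in knockouts without HGF, and their part in these differences was not tested.

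With HGF, all 12 cytosolic genes were lower in knockout than in control livers, with a median of -0.20 beside 0.04 over all tested probe sets. No member passed (limma), beside 1 probe set (0.015%), and 2 members (5.71%) had an unadjusted p under 0.05, beside 9.56% of all tested probe sets. Ppp1r15a was lower by a difference of -1.08 (SE 0.29, adjusted p 0.425) and Dnajb4 by one of -0.66 (SE 0.29, adjusted p 0.515). In 5 members the knockout arrays lay wholly below the controls (Hspa1b, Dnajb1, Dnajb4, Dnajb11 and Ppp1r15a; 6.08% of all probe sets), and in none wholly above (8.81%). Dnajb1 is the HSP40 partner of inducible HSP70, and Dnajb11 is an HSP40 of the ER. The sign of the cytosolic median rests on the array labelled knockout replicate 2: without both such arrays the median was 0.04, and that of the ER chaperones went from -0.11 to 0.03. Without them Ppp1r15a differed by -0.99 (SE 0.27), Dnajb4 by -0.49 (SE 0.20) and Hspa1b by -0.83 (SE 0.50), the last against -1.47 with all arrays.

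The HGF difference itself was compared between the genotypes by the interaction, the difference in knockouts minus that in controls. No member passed (limma), nor did any probe set (0.0%), and 2 members (5.71%) had an unadjusted p under 0.05, beside 10.8% of all tested probe sets. For Ppp1r15a the interaction was -1.40 (SE 0.41, adjusted p 0.329) and for Dnajb4 it was -1.06 (SE 0.41, adjusted p 0.415). For Hspa1b it was -1.93 with an SE of 1.20. Without both arrays labelled knockout replicate 2 it was -1.03 (SE 0.38) for Ppp1r15a, -0.54 (SE 0.28) for Dnajb4 and -0.28 (SE 0.70) for Hspa1b. The cytosolic median then went from -0.12 to 0.35 and the ER chaperone median from 0.23 to 0.60. Leaving out a high array without HGF and a low array with HGF raises both medians by itself. No member's HGF difference was therefore shown to differ between the genotypes.

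The spread of the members among knockout arrays of the same group followed the array. Of the 3 knockout arrays without HGF, the one labelled replicate 2 was the highest in 31 of 35 members, including all 12 cytosolic and all 13 ER chaperone genes, beside 30.8% of all tested probe sets. Of the 3 with HGF, the one labelled replicate 2 was the lowest in 29 of 35, including 11 of 12 cytosolic and 13 of 13 ER chaperone genes, beside 34.0%. Replicate 3 with HGF was the highest in 20 of 35, beside 27.9%. These are counts over genes of the same arrays, which are not independent of each other.

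Hsph1 shows the span. It read 5.73, 8.24 and 5.75 on the knockout arrays without HGF and 7.10, 5.23 and 7.66 on those with HGF, a range of 3.01 or 8.03-fold, against a range of 1.17 over the 6 control arrays. Hspa1b spanned 3.55 (11.7-fold) over the knockout arrays, little more than its 3.40 over the controls. Bag3 spanned 2.13 (4.37-fold) against 1.55 over the controls. Hspa5 spanned 1.21 (2.32-fold) over the knockout arrays, at 11.23, 12.30 and 11.10 without HGF and 11.79, 11.09 and 12.13 with it, against 0.69 over the controls. The mitochondrial HSP70 gene Hspa9 spanned 0.18 over the same knockout arrays. The range was wider over the knockout than over the control arrays in 11 of 12 cytosolic genes (median 1.18 against 0.74) and in 10 of 13 ER chaperone genes (0.83 against 0.80), beside 55.2% of all tested probe sets (0.61 against 0.57).

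**Figure D4:**
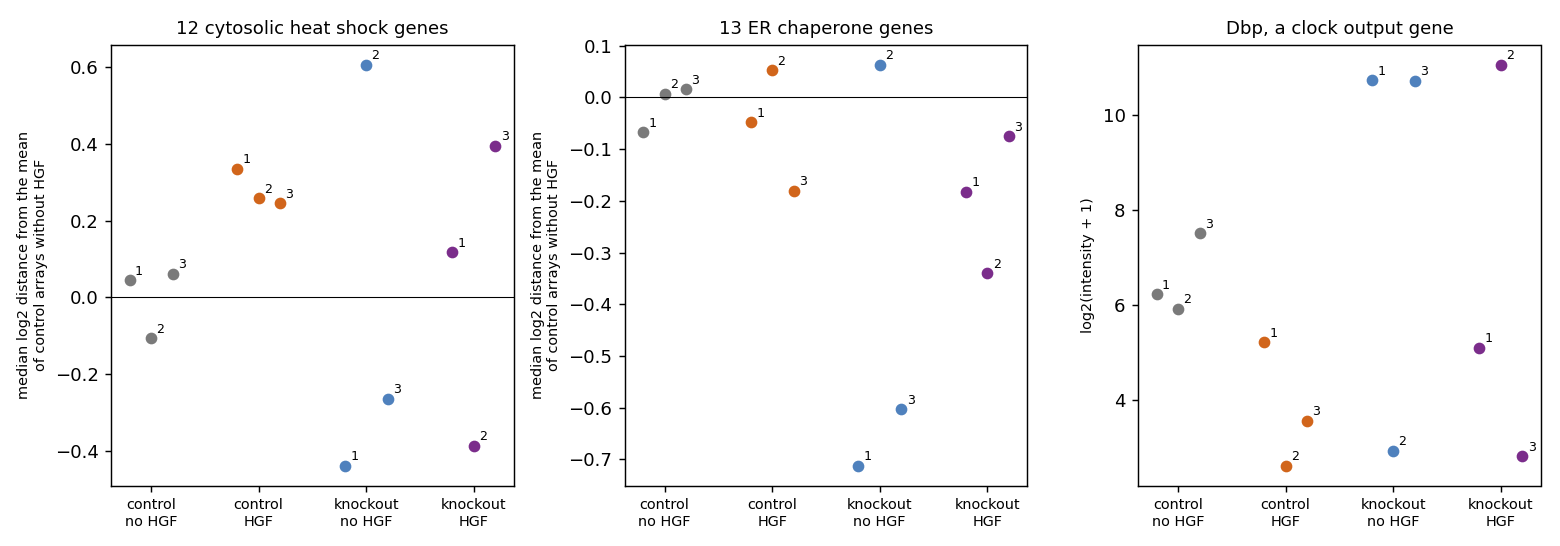
Median distance of the cytosolic and of the ER chaperone genes from the average unstimulated control (log2 scale) and the level of Dbp, on each of the 12 arrays. On the knockout arrays the cytosolic median runs from -0.44 to 0.61, and the 3 arrays with Dbp above 10 have the lowest cytosolic medians.

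The clock output gene Dbp, which peaks once a day in liver, ran opposite to the chaperones on the knockout arrays. Dbp read 10.72, 2.92 and 10.72 without HGF and 5.09, 11.05 and 2.81 with HGF. The cytosolic median stood -0.44, 0.61 and -0.26 from the unstimulated control mean on the arrays without HGF, and 0.12, -0.39 and 0.39 from it on those with HGF. The ER chaperone median stood -0.71, 0.06 and -0.60 and then -0.18, -0.34 and -0.08 from it. Of the 6 knockout arrays, the 3 with high Dbp thus held the 3 lowest values of both medians. On the control arrays Dbp read 6.22, 5.91 and 7.50 without HGF and 5.21, 2.61 and 3.55 with it. The neutrophil gene S100a8 and the acute phase gene Saa3 were highest on replicate 2 without HGF and replicate 3 with HGF. These were also the knockout arrays with the highest chaperone medians. S100a8 read 4.21, 8.96 and 3.56 on the knockout arrays without HGF and 6.77, 2.95 and 8.96 with HGF, and summed neutrophil markers ran from 49.0 to 1262 and from 33.2 to 1249. Saa3 read 8.75, 12.62 and 6.81 without HGF and 7.66, 6.26 and 12.69 with it. Between the arrays labelled replicate 1, Saa3 was lower with HGF, while both chaperone medians were higher. The part of neutrophil and acute genes in the member values was not tested. No label used here gives the hour at which livers were taken, and its part in the member values was not tested.

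The array labelled knockout replicate 2 without HGF was the highest of its 3 in 19 of 35 other ER genes, 12 of 25 other cytosolic chaperones and 14 of 24 other genes of the ATF4 arm. It was also the highest in 4 of 6 other mitochondrial genes, beside 30.8% of all tested probe sets. The one labelled knockout replicate 2 with HGF was the lowest of its 3 in 20, 13, 16 and 4 of these lists, in the same order, beside 34.0% of all tested probe sets. Genes of these lists did not all follow the array: P4hb, a disulfide isomerase gene, read 11.82, 11.84 and 11.84 on the knockout arrays without HGF and 12.06, 11.85 and 11.86 with it. P4hb and the next 3 genes were chosen after their values were seen. Creld2, a target of the unfolded protein response, read 7.04, 9.11 and 6.85 without HGF and 7.94, 6.29 and 9.01 with it. Manf, a secreted ER stress protein, read 9.54, 10.73 and 9.63 and then 10.05, 9.23 and 10.69. Trib3, a target of ATF4 and CHOP, ran the other way, at 5.85, 3.28 and 6.04 without HGF and 4.48, 6.05 and 3.22 with it.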

How the data were processed

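The authors deposited 1 linear intensity per probe set and array, made with GCRMA per the submitters' processing notes; no version or settings were given in the sources used here. The method corrects background by base composition and brings arrays to a common distribution, so a shift of most genes would not show, and values near background are compressed. Groups and replicate numbers came from the sample titles. After removal of 64 control probe sets, 15780 of 16475 had 1 gene symbol in the platform annotation and 695 had none. Values were taken as log2(intensity + 1), which understates changes of low genes, and probe sets that reached 4 on 3 or more arrays were tested. Limma 3.58.1 in R 4.3.3 fitted a mean per group over all 12 arrays, and 5 contrasts were tested two-sided at a Benjamini-Hochberg adjusted p of 0.05 over all tested probe sets. The median SE of a member's difference between 2 groups was 0.24; 3 arrays per group limit the precision. P-values rest on the spread between animals within groups, pooled over all 4 groups. The spread of the knockout arrays therefore enters the comparison of control livers too. The 46 members and all lists were chosen with earlier results of these data known. Any member could be named. From other lists, called genes and up to 4 genes with the smallest p in control livers could be named, and clock and acute genes beside a result. P4hb, Creld2, Manf and Trib3 were named outside this rule, after their values were seen. Alternatives changed the pseudocount, filter, scaling, arrays in the fit, replicate block and array weights. The fit was tested on simulated data. Promoter sequences are from RefSeq.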

Additional observations from a re-analysis of the deposited data

How the results depend on the processing

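Under every alternative run, the median HGF difference in control livers stayed positive for the cytosolic genes (0.14 to 0.33) and negative for the ER chaperones (-0.19 to -0.10), beside -0.10 to -0.03 over all probe sets. Some alternatives could not alter these medians, namely leaving out only knockout arrays, fitting control arrays alone, and adding the replicate block. The number of calls depended on the arrays in the fit. For HGF in control livers, 27 probe sets and 0 members became 41 probe sets with log2(intensity + 16), 13 with no filter, 801 with 3 members from the control arrays alone, 1353 with 4 members under array weights (whose estimation stopped before it converged), and 545 with 3 members without both arrays labelled knockout replicate 2. The 4 under array weights were Asns, Atf6, Dnajb4 and Ppp1r15a, and Hspa1b did not pass there (adjusted p 0.0522 by limma). The share of the 35 members that passed was below that of all 6683 probe sets under array weights and from the control arrays alone. It was near that share without both arrays labelled knockout replicate 2. Leaving out 1 array at a time gave 0 to 317 probe sets and 0 to 1 members. For HGF in knockout livers, 0 became 278 probe sets and 5 members without both arrays labelled knockout replicate 2. As said above, that choice of arrays raises the HGF differences of most members by itself. For the knockout without HGF, 4 probe sets became 1 under the stricter filter, 637 with 6 members under array weights, 180 with 1 member without both such arrays, and 1 to 9 on leaving out 1 array. Those 6 of the 35 members, beside 637 of 6683 probe sets, were Asns, higher in the knockout, and 5 ER chaperone genes, all lower. The 5 were Hspa13, Hspa5, Pdia3, Pdia6 and Sdf2l1, and they passed only under these weights, whose estimation had not converged. For the knockout with HGF, 1 became 290 with 1 member under array weights, 2 without both such arrays, and 1 to 3 on leaving out 1 array. For the interaction, 0 became 268 under array weights, 24 without both such arrays, and 0 to 1 on leaving out 1 array. Members had no call in the fit of all arrays that could reverse. The cause of these changes was not tested.

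With the replicate number as a block, 0 probe sets passed for HGF in control livers and 1 for the knockout without HGF, and 0 members passed. Whether the numbers mark pairs of animals is not settled by these data. Same-numbered arrays within a genotype carry adjacent array numbers. In controls, deviations of same-numbered arrays correlated at 0.10, 0.18 and 0.05, and those of differently numbered ones at -0.18 to 0.07. In knockouts, same-numbered arrays correlated at 0.12, -0.83 and -0.70, and differently numbered ones at -0.69 to 0.85. The knockout values cannot decide it, since the arrays labelled replicate 2 are in doubt.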
